A study of Mus musculus with 2 samples.

Results

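The 9 genes described here, of 31053 in the count tables, encode parts of the phagocyte NADPH oxidase and antioxidant enzymes. They were chosen by symbol: the oxidase subunits Cybb, Cyba, Ncf1 and Ncf4, and the enzymes Sod2, Gsr, Txn1, Prdx1 and Prdx5. Each symbol matched 1 row. Their transcripts were counted in single CD45+ CD11b+ leukocytes sorted from the liver of C57BL/6 mice after a Histopaque gradient. Ctrl mice were uninjured, and RES mice had liver fibrosis that had resolved; how fibrosis was brought about and resolved, and the age and sex of the mice, are not given in the sources used here. Each library pooled 5 mice, with 1 library per group. Library and group therefore cannot be told apart, no difference between them has a replicate check, and no test was made.

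The phagocyte NADPH oxidase moves electrons from NADPH across a membrane onto oxygen and so makes superoxide. Its membrane core is gp91phox, encoded by Cybb, bound to p22phox, encoded by Cyba. On activation cytosolic subunits, among them p47phox (Ncf1) and p40phox (Ncf4), join it together with a Rac GTPase. Superoxide made in mitochondria is turned into hydrogen peroxide by the manganese dismutase SOD2. Peroxiredoxins such as PRDX1 and PRDX5 reduce peroxides and are themselves reduced by thioredoxin (Txn1), while glutathione reductase (Gsr) returns oxidized glutathione to its reduced form at the cost of NADPH. Monocytes and macrophages of the liver are known users of the oxidase.

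Ctrl had 20379164 UMIs (unique molecular identifiers, each standing for a captured transcript) in 3691 barcodes and RES had 34119806 in 4278 barcodes. Filters left 3337 Ctrl cells (median 4510 UMIs) and 4011 RES cells (median 6357 UMIs), and 56 barcode sequences occurred in both libraries. Classes were set by marker UMIs, none of them from a member gene. NK cells numbered 1591 in Ctrl and 1494 in RES, classical monocytes 524 and 672, nonclassical monocytes 333 and 556, C1q macrophages 113 and 379, conventional dendritic cells (cDC) 186 and 133, and B cells 60 and 64. Myeloid cells with at least 5 Arg1 and Spp1 UMIs and low C1q numbered 12 in Ctrl, under the minimum of 50, and 346 in RES, so they are described for RES alone. Monocytes and macrophages together, 1129 and 2023 cells, had summed Kupffer cell markers of 9.37 and 8.32 CPM. Of the 6 neutrophil markers, 4 had UMIs in Ctrl (73.1 CPM summed, of which Csf3r made 70.4) and 5 in RES (84.2 CPM, Csf3r 57.2), with Ly6g at 0 in both. In classical monocytes the neutrophil markers summed to 92.8 and 148 CPM, with Csf3r at 90.4 and 88.1, and their part in the results was not tested. Levels are UMIs per 1000000 UMIs of the class (CPM). A ratio is the log2 of the RES level over the Ctrl level, and intervals are exact 95% intervals for counting error alone. A gene was called higher or lower at a 1.5-fold difference with at least 20 CPM in either library.

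Over all kept cells Ncf1, Gsr and Txn1 were higher in RES, 3 of 9 members, and none lower, where 6.06% of all genes were called higher and 3.63% lower. In all monocytes and macrophages, Ncf1 and Txn1 were higher in RES, 2 of the 9 members, and no member was lower. Of all 5934 genes measured in these cells, 6.96% were called higher and 4.74% lower. The level of Txn1, the cytosolic thioredoxin, was 356 CPM in Ctrl and 627 CPM in RES, a log2 ratio of 0.82 (0.76 to 0.88). That of Ncf1, the organizer subunit of the oxidase, was 155 and 242 CPM, a ratio of 0.64 (0.55 to 0.73). The other ratios lay between -0.43 for Prdx5 and 0.31 for Ncf4, with a median over the 9 members of 0.18 against 0.04 over all genes. These pooled ratios hide differences between classes, which differ in number between the libraries, and the classes are therefore described one by one.

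**Figure D1:**
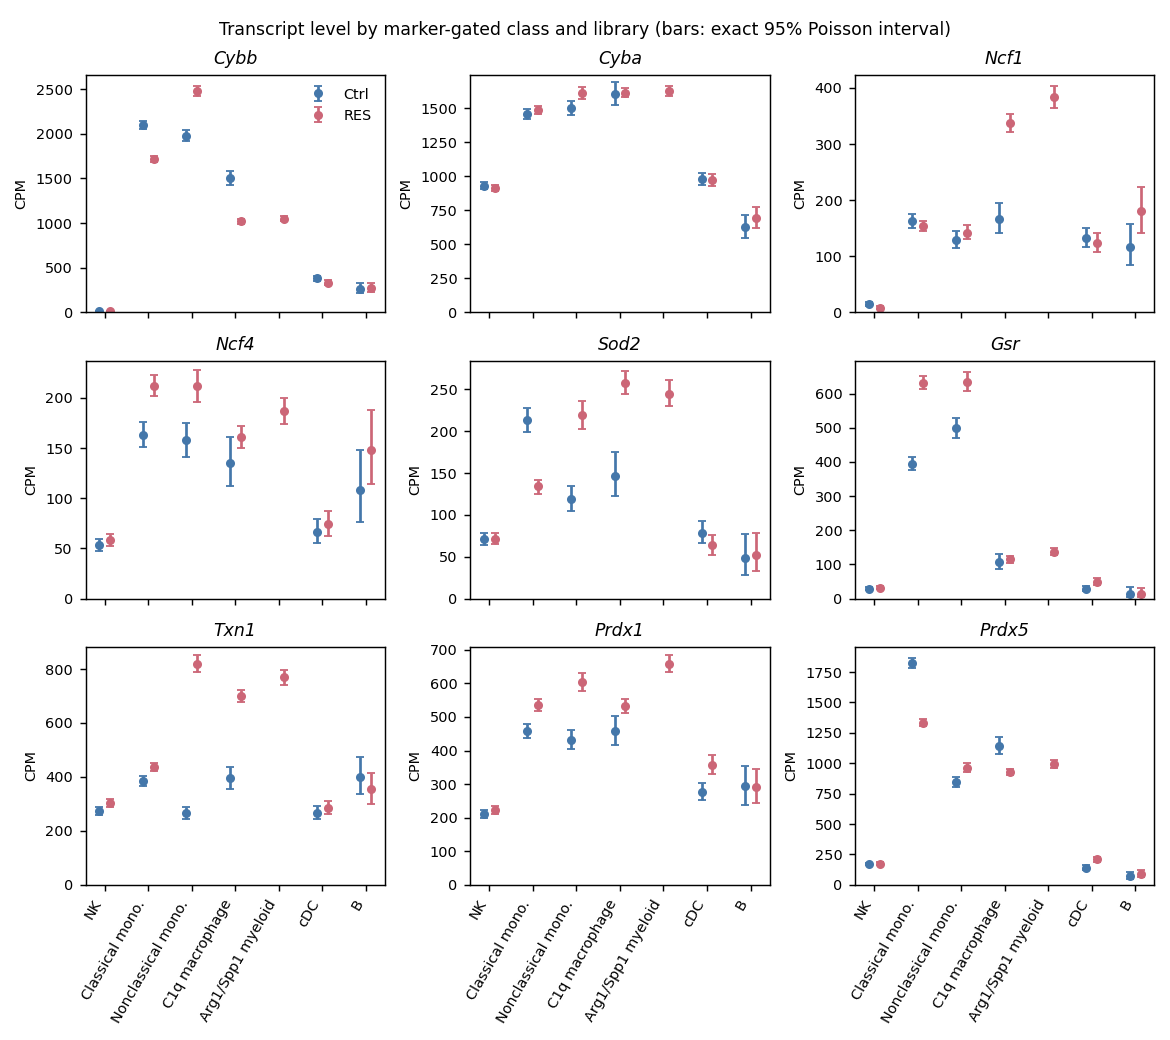
Level of each member (y axis, CPM, from 0, scaled per gene) in each marker-gated class (x axis) of the Ctrl and RES libraries, with exact 95% Poisson intervals; classes under 50 cells in a library are left out. Cybb and Gsr are high in monocytes and low in NK cells, and the RES points of Txn1 in nonclassical monocytes and of Ncf1 in C1q macrophages lie above their Ctrl points.

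Sequence upstream of 4 members is shown. Cybb differed most between classes, Txn1 had the largest ratio between the libraries, and Sod2 ran opposite ways in different classes. Prdx1 was chosen for its match to the antioxidant response element core, and not for a result in these data. RefSeq windows of GRCm38.p6, from 250 bases before to 50 bases after the start, matched 7 of the 9 members; Ncf4 and Gsr had none. These motifs were searched on both strands: TGACNNNGC, the antioxidant response element core, found in 12.4% of all 32817 windows of this length, an NF-kB-like motif (GGGA, any 4 bases, CC), found in 20.7%, and GAGGAAGT, a PU.1 core, found in 3.20%. Capitals mark matches, and position -1 is the last base before the start. The Cybb and Sod2 windows lie wholly inside the gene spans given below, so their starts differ from the outermost annotated starts. Sequence at those outer starts was not searched. The windows are chrX:9469275-9469574 on the minus strand for Cybb, chr4:57956362-57956661 on the minus strand for Txn1, chr4:116685349-116685648 on the plus strand for Prdx1 and chr17:13007589-13007888 on the plus strand for Sod2.
Cybb: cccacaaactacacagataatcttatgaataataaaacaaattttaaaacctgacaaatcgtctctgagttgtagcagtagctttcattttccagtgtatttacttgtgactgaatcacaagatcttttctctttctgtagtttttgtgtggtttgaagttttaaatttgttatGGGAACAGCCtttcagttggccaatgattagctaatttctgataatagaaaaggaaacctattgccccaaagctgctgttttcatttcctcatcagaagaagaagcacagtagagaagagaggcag
Txn1: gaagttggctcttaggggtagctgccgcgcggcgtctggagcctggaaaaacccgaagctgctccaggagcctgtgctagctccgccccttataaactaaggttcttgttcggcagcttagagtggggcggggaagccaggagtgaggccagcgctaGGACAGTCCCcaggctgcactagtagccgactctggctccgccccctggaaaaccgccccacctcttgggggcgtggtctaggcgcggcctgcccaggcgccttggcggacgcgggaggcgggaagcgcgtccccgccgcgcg
Prdx1: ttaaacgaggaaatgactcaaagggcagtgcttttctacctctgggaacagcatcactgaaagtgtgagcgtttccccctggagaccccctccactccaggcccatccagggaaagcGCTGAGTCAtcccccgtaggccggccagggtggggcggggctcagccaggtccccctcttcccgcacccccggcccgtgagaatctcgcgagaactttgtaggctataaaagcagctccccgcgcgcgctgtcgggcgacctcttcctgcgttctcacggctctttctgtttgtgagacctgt
Sod2: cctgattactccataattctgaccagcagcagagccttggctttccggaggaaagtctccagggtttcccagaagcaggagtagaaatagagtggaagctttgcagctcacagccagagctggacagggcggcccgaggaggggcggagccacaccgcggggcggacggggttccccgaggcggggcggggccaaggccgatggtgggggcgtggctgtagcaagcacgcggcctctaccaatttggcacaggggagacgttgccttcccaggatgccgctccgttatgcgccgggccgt
The NF-kB-like letters began at -76 in Cybb and -93 in Txn1, and also at -231 in Cyba and -51 in Ncf1. The antioxidant core began at -133 in Prdx1. Neither the Sod2 nor the Prdx5 window held any of the motifs, and the PU.1 core was in none of the 7. A match is a description of letters and not a measured site.

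Cybb, on chrX:9435252-9487771 (GRCm38, GENCODE M21, minus strand), marked the monocyte lineage. In Ctrl its level was 2098 CPM (2054 to 2142) in classical monocytes, 1976 (1917 to 2037) in nonclassical monocytes, 1503 (1424 to 1584) in C1q macrophages, 379 in cDC, 264 in B cells and 13.9 in NK cells. In RES it was 1715 (1685 to 1746), 2482 (2428 to 2537), 1017 (989 to 1045), 329, 271 and 12.7 CPM, with 1048 in the Arg1/Spp1 myeloid cells. The highest class stood 151-fold above the lowest in Ctrl and 196-fold in RES. Every step of the Ctrl order was wider than the counting intervals, whereas in RES the Arg1/Spp1 cells and C1q macrophages overlapped, as did cDC and B cells. Monocytes and macrophages supplied 84.7% of all Cybb UMIs in Ctrl and 92.4% in RES.

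The NK value was at the level that free RNA could carry. Lyz2, a myeloid transcript, was at 86.9 CPM in Ctrl NK cells against 11905 in monocytes and macrophages, and at that proportion 13.8 CPM of Cybb would be carried, beside the 13.9 observed. In RES the carried level was 17.0 CPM beside 12.7 observed. At 1000 UMIs per cell, a Cybb UMI was seen in 1.02% of Ctrl and 1.28% of RES NK cells, against 83.4% and 80.1% of classical monocytes; unthinned shares were 3.90% and 5.15% against 99.8% and 99.4%. The NK share is read as background. The other 8 members were 2.94- to 105-fold above their carried level in NK cells.

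Between the libraries, Cybb was lower in RES classical monocytes and C1q macrophages and higher in RES nonclassical monocytes, each by less than 1.5-fold in the sums. Its log2 ratio was -0.29 (-0.33 to -0.25) in classical monocytes, -0.56 (-0.65 to -0.48) in C1q macrophages and 0.33 (0.27 to 0.38) in nonclassical monocytes. The C1q macrophage ratio was close to the limit and passed it in 3 of 9 alternatives: -0.83 with cells weighted equally, -0.68 after thinning and -0.63 with ratios centred on the median. In the monocytes and macrophages outside the named gates, 147 Ctrl and 70 RES cells, Cybb was called lower (-0.90, -1.05 to -0.74) along with Ncf1 (-0.60) and Prdx5 (-1.53), 3 of the 9 members where 8.62% of all genes were called lower and 11.4% higher.

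Cyba, on chr8:122424776-122432930 (minus strand), was expressed in all classes. Its Ctrl level ran from 625 CPM in B cells to 1606 in C1q macrophages, a 2.57-fold span, and NK cells were at 930 and 915 CPM in Ctrl and RES. Its ratios between the libraries lay between -0.02 in NK cells and 0.15 in B cells across the 6 classes. The balance of the 2 membrane chains therefore followed Cybb. For each 100 Cyba UMIs there were 144 Cybb UMIs (139 to 149) in Ctrl and 115 (112 to 118) in RES classical monocytes. The same count was 132 and 154 in nonclassical monocytes, 93.6 and 63.0 in C1q macrophages, and 1.49 and 1.39 in NK cells. An annotated gene, Gm20388, spans Cyba on the other strand and had 0 UMIs in these myeloid cells.

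Ncf1, on chr5:134220053-134229625 (minus strand), stood apart in RES macrophages. In Ctrl its level was 166 CPM in C1q macrophages, 162 in classical monocytes, 133 in cDC, 128 in nonclassical monocytes and 117 in B cells, neighbours that overlapped in their intervals, and 14.5 in NK cells. In RES it was 337 CPM (321 to 353) in C1q macrophages and 384 (365 to 404) in the Arg1/Spp1 cells, and between 124 and 180 in monocytes, cDC and B cells. The C1q macrophage ratio was 1.02 (0.78 to 1.27), while that of classical monocytes was -0.08 (-0.22 to 0.06) and that of nonclassical monocytes 0.15 (-0.07 to 0.37). At 1000 UMIs per cell, Ncf1 was seen in 9.17% of Ctrl and 27.2% of RES C1q macrophages (60.2% and 85.5% unthinned), beside 1.02% and 0.740% of NK cells. Relative to Cyba, the macrophages went from 10.3 Ncf1 UMIs per 100 in Ctrl to 20.9 in RES, while Cybb per 100 went the other way. The 3′ end of Ncf1 overlaps Gtf2ird2 on the other strand, which was at 6.60 and 3.96 CPM in C1q macrophages; whether strand was used in counting is not given in the sources used here.

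In C1q macrophages, Ncf1, Sod2 and Txn1 were called higher in RES, 3 of 9 members, and none lower, where 17.2% of all genes were called higher and 17.4% lower. The call has no condition on counting error and the Ctrl sum rests on 113 cells; how much of that share is counting error was not tested. In B cells, Ncf1 was the 1 of 8 measured members called higher (0.62, 0.06 to 1.21, from 41 and 79 UMIs) and none was lower, against 19.0% and 15.1% of all genes.

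Ncf4, on chr15:78244801-78262580 (plus strand), encodes the subunit that reads phosphoinositides on the phagosome. It was at 163 and 212 CPM in classical monocytes, 158 and 212 in nonclassical monocytes and 135 and 161 in C1q macrophages, with ratios of 0.38 (0.25 to 0.51), 0.43 (0.24 to 0.62) and 0.25 (-0.03 to 0.53). It was not called in any of the 6 classes, and NK cells were at 53.0 and 58.1 CPM. Cells with transcripts of several subunits were counted at 1000 UMIs per cell. At least 2 of the 4 subunits were seen in 72.9% and 70.2% of classical monocytes, 71.4% and 75.5% of nonclassical monocytes and 62.4% and 60.3% of C1q macrophages, against 28.0% and 21.8% of cDC and 3.71% and 4.30% of NK cells. All 4 were seen in 1.34% and 2.68% of classical monocytes, 0.602% and 1.26% of nonclassical monocytes and 0.917% and 0.265% of C1q macrophages. In Ctrl classical monocytes Cybb was seen in 83.4% and Cyba in 77.1%, but Ncf1 in 12.8% and Ncf4 in 16.4%.

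**Figure D2:**
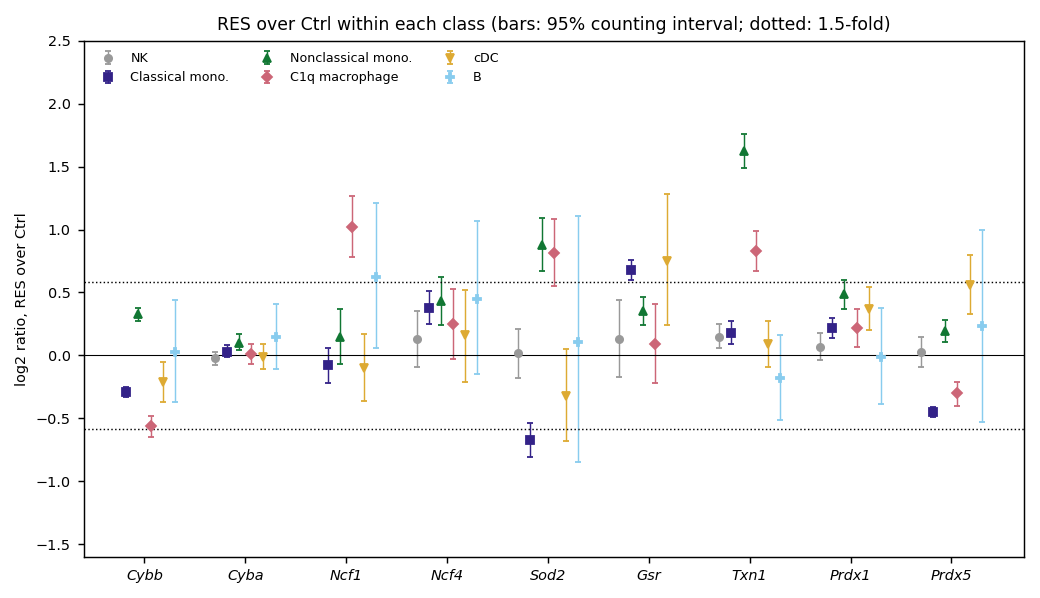
Log2 ratio RES over Ctrl (y axis) of each member (x axis) in 6 marker-gated classes, with 95% counting intervals; dotted lines mark 1.5-fold, and members under 20 CPM in both libraries of a class are not drawn. Txn1 in nonclassical monocytes is the highest point at 1.62, and Sod2 lies above the upper line in nonclassical monocytes and C1q macrophages and below the lower line in classical monocytes.

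Sod2, on chr17:13006846-13040063 (plus strand), ran opposite ways in the monocyte classes. Its level in classical monocytes was 213 CPM (199 to 228) in Ctrl and 134 (125 to 142) in RES, a ratio of -0.67 (-0.81 to -0.54). In nonclassical monocytes it was 119 (105 to 135) and 219 CPM (203 to 236), a ratio of 0.88 (0.67 to 1.09). C1q macrophages were at 147 and 258 CPM, a ratio of 0.81 (0.55 to 1.08), and NK cells at 70.8 and 71.6. Classical monocytes were thus the highest class in Ctrl, and C1q macrophages, Arg1/Spp1 cells (245 CPM) and nonclassical monocytes, the last of these overlapping the Arg1/Spp1 cells, lay above them in RES. In classical monocytes 1 of 9 members, Gsr, was called higher and 1, Sod2, lower, where 3.22% and 3.99% of all genes were called. In nonclassical monocytes Sod2 and Txn1 were called higher and none lower, where 5.59% and 2.67% of all genes were called.

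Sod2 in classical monocytes moved with interferon-induced transcripts in both libraries, and Prdx5 did so in Ctrl. An interferon list of 8 genes made up 17.4 CPM of the lowest tertile of Ctrl classical monocytes and 4063 CPM of the highest, 174 cells each. Across the lowest, middle and highest tertiles in Ctrl, the Sod2 level was 80.2, 156 and 398 CPM, a log2 ratio of highest over lowest of 2.31 (2.01 to 2.62). Prdx5 was at 1292, 1657 and 2502 CPM over the same tertiles, a ratio of 0.95 (0.87 to 1.04). Txn1 was higher (0.59, 0.42 to 0.77) and Gsr lower (-0.49, -0.67 to -0.31) in the highest Ctrl tertile. In RES, where the lowest tertile and part of the middle had no UMI of the list and such ties were split by file order, Sod2 was at 97.6, 139 and 163 CPM (0.74, 0.50 to 0.99) and Prdx5 at 1311, 1337 and 1352 (0.04, -0.03 to 0.12). The RES ratios of highest over lowest tertile were -0.08 (-0.21 to 0.05) for Txn1 and -0.05 (-0.15 to 0.05) for Gsr. In nonclassical monocytes the Ctrl and RES ratios were 0.72 (0.25 to 1.20) and 0.35 (0.09 to 0.61) for Sod2. They were 0.36 (0.18 to 0.53) and 0.27 (0.15 to 0.40) for Prdx5. In C1q macrophages they were 0.48 (-0.10 to 1.07) and -0.11 (-0.30 to 0.08) for Sod2, and 0.89 (0.66 to 1.12) and -0.03 (-0.12 to 0.07) for Prdx5. For Gsr they were -0.16 (-0.39 to 0.07) and -0.15 (-0.30 to 0.01) in nonclassical monocytes. In C1q macrophages the Gsr ratios were -0.24 (-1.19 to 0.69) in Ctrl and 0.89 (0.59 to 1.19) in RES, there from 84.9 to 157 CPM. In RES Arg1/Spp1 cells Gsr went from 110 to 177 CPM, a ratio of 0.69, with 70.3 CPM of the list in the highest tertile. Ties were split by file order in nonclassical monocytes and C1q macrophages too, except in Ctrl C1q macrophages. The highest tertile held less of the list in RES: 1121 CPM against 4063 in Ctrl classical monocytes. It held 239 against 623 CPM in nonclassical monocytes and 204 against 2131 in C1q macrophages. In these RES classes the middle tertile and part of the highest had no UMI of the list. The Ctrl and RES ratios thus come from unlike contrasts.

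With both libraries limited to classical monocytes in which the list made up at most 500 CPM, a limit chosen after the data were seen, 334 Ctrl and 602 RES cells remained. Sod2 was then at 114 and 121 CPM, a ratio of 0.09 (-0.10 to 0.29), an interval that spans 0. The limit leaves out cells high in the list, in which Ctrl Sod2 had already been seen to be highest. The part of the interferon state in the classical monocyte difference was not tested. Prdx5 had a ratio of -0.11 (-0.16 to -0.05) and Gsr of 0.55 (0.45 to 0.65), and no member was called. The share of all genes called was not taken under this limit. The same limit left the nonclassical ratios of Sod2 at 1.15 and of Txn1 at 1.71.

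**Figure D3:**
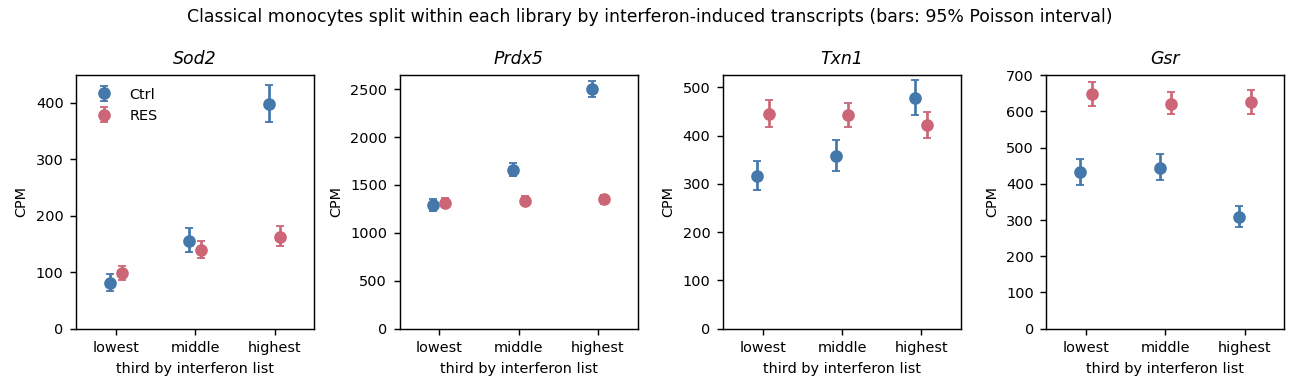
Levels (y axis, CPM, from 0) of Sod2, Prdx5, Txn1 and Gsr in classical monocytes of each library, split within the library into tertiles by the share of interferon-induced transcripts (x axis), with 95% Poisson intervals. Sod2 goes from 80.2 to 398 CPM across the Ctrl tertiles and from 97.6 to 163 CPM across the RES tertiles.

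Gsr, on chr8:33652523-33698163 (plus strand), was a monocyte transcript. In Ctrl it was at 498 CPM (469 to 529) in nonclassical and 394 (375 to 413) in classical monocytes, 108 in C1q macrophages, and 28.8, 28.5 and 14.2 in NK cells, cDC and B cells. In RES classical monocytes it was at 632 CPM (614 to 650), a ratio of 0.68 (0.60 to 0.76), and equal within counting error to nonclassical monocytes at 635. The nonclassical ratio was 0.35 (0.24 to 0.46) and the C1q macrophage ratio 0.09 (-0.22 to 0.41). At 1000 UMIs per cell, Gsr was seen in 30.2% of Ctrl and 46.9% of RES classical monocytes (81.5% and 95.7% unthinned), beside 2.56% and 3.56% of NK cells. Within C1q macrophages of RES it ran against Ncf1: 230 CPM in the 46 cells without an Arg1 or Spp1 UMI and 100 CPM in those with 5 or more. Gsr was also the 1 of 9 members called higher in cDC (28.5 and 48.0 CPM, 0.75, 0.24 to 1.28) with none lower, against 6.22% and 4.72% of all genes. By the Lyz2 proportion, with Lyz2 at 849 and 748 CPM in cDC, 25.3 and 30.9 CPM of Gsr could be carried there, 1.13- and 1.55-fold below the observed levels; the part of free RNA in this call was not tested.

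The classical monocyte values depend on where the Arg1/Spp1 cells are placed. Without that gate, 528 Ctrl and 937 RES cells counted as classical monocytes, with a Gsr ratio of 0.28 and a Sod2 ratio of -0.34, and neither was called. Among classical monocytes with no Arg1 or Spp1 UMI, 510 and 480 cells, the ratios were 0.69 for Gsr and -0.62 for Sod2.

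Txn1, on chr4:57943373-57956411 (minus strand), had the largest ratio of any member in any of the 6 classes. In nonclassical monocytes its level was 266 CPM (245 to 289) in Ctrl and 820 (789 to 851) in RES, a ratio of 1.62 (1.49 to 1.76) or 3.08-fold. Depth was alike there, with a median of 5149 and 5066 UMIs, and UMIs per cell were 1.69 and 4.80. At 1000 UMIs per cell, 24.1% of Ctrl and 48.7% of RES nonclassical monocytes had a Txn1 UMI (69.7% and 88.5% unthinned), beside 23.2% and 23.5% of NK cells. The class with the lowest Txn1 level in Ctrl, in which it overlapped NK cells (273 CPM) and cDC (268), was the highest in RES, where it overlapped the Arg1/Spp1 cells (769). Among nonclassical monocytes with no Arg1 or Spp1 UMI, 328 and 436 cells, the ratio was 1.66 (1.53 to 1.80). Other classes were nearer: classical monocytes 384 and 436 CPM (0.18, 0.09 to 0.27), NK cells 273 and 303, cDC 268 and 285, and B cells 401 and 355. C1q macrophages were at 395 and 701 CPM (0.83, 0.67 to 0.99). The annotation also lists a processed pseudogene, Txn-ps1, and reads shared with such a copy cannot be told apart here.

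**Figure D4:**
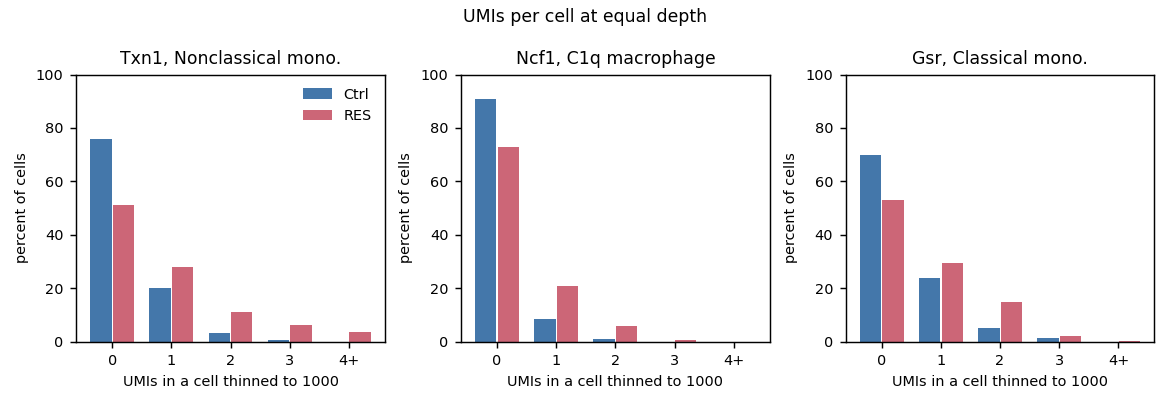
Percent of cells (y axis) with 0, 1, 2, 3 or at least 4 UMIs (x axis) after thinning each cell to 1000 UMIs, for Txn1 in nonclassical monocytes, Ncf1 in C1q macrophages and Gsr in classical monocytes of Ctrl and RES. The RES bars lie lower at 0 UMIs in all 3 panels, where the shares of cells with a UMI are 24.1% and 48.7%, 9.17% and 27.2%, and 30.2% and 46.9%.

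In RES C1q macrophages the values of Ncf1, Sod2, Txn1, Cybb and Gsr moved with Arg1, arginase, and Spp1, osteopontin. At least 5 UMIs of the pair were seen in 7.08% of Ctrl C1q macrophages (8 cells) and 83.6% of RES (317 cells), and 0 UMIs in 87.6% (99 cells) and 12.1% (46 cells, under the minimum of 50). In RES, cells with at least 5 UMIs had Ncf1 at 365 CPM, Sod2 at 272 and Txn1 at 746, against 130, 115 and 320 CPM in cells with none. Cybb was the other way round, at 976 against 1325 CPM, while Cyba (1615 against 1579), Prdx1 (525 against 587) and Prdx5 (914 against 973) differed less. Ncf4 was at 165 CPM (153 to 177) against 117 (86.5 to 156), intervals that overlap. The 8 Ctrl cells with at least 5 UMIs had Ncf1 at 190 CPM (114 to 297), Sod2 at 180 (107 to 284) and Txn1 at 440 (320 to 590), intervals that overlap those of the Ctrl cells with none. Their Cybb level was 1149 CPM (949 to 1380), with an interval below that of the Ctrl cells with none (1465 to 1644). The Ctrl cells with none had Ncf1 at 168, Sod2 at 134, Txn1 at 383 and Cybb at 1552 CPM, so that among cells with no UMI of the pair the ratio was -0.37 (-0.86 to 0.10) for Ncf1, -0.23 (-0.76 to 0.29) for Sod2 and -0.26 (-0.57 to 0.04) for Txn1. Gsr had a ratio of 1.20 (0.75 to 1.66) there, Prdx1 of 0.36 (0.11 to 0.60) and Cybb of -0.23 (-0.38 to -0.08). Depth also differed, with a median of 9194 UMIs in the RES cells with none and 12737 in those with at least 5; its part in the result was not tested. Summed Kupffer cell markers were 70.4 CPM in Ctrl and 25.5 in RES C1q macrophages, and their part was not tested.

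**Figure D5:**
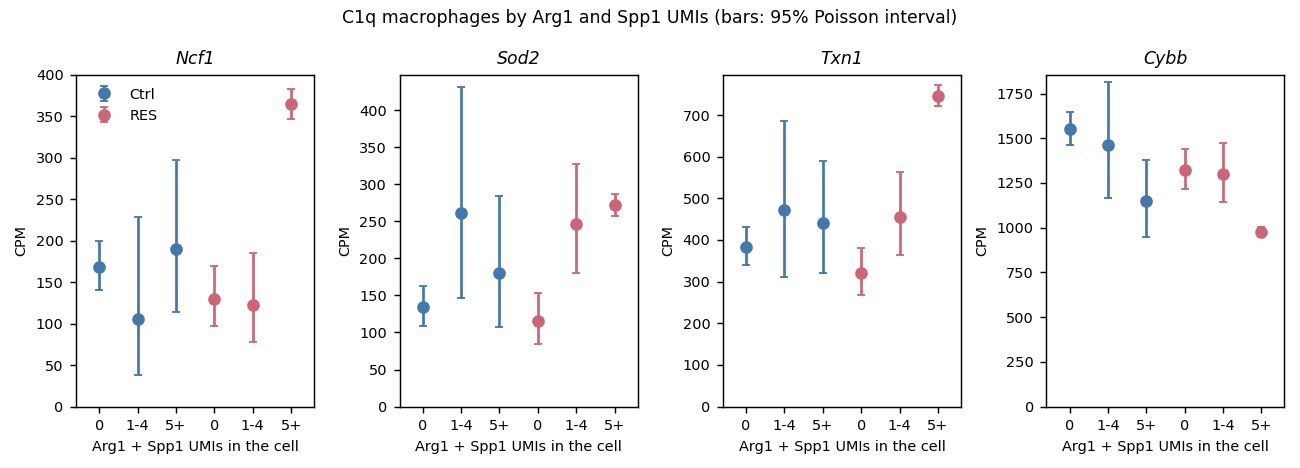
Levels (y axis, CPM, from 0) of Ncf1, Sod2, Txn1 and Cybb in C1q macrophages of each library by the number of Arg1 and Spp1 UMIs in the cell (x axis: 0, 1 to 4, 5 or more), with 95% Poisson intervals; the range of 1 to 4 holds 6 Ctrl and 16 RES cells and was added after the data were seen. RES cells with 5 or more UMIs have the highest Ncf1 at 365 CPM, and for Ncf1, Sod2 and Txn1 the intervals of RES and Ctrl cells with none overlap.

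Neither peroxiredoxin was called in the 6 classes. Prdx1, on chr4:116685544-116700822 (plus strand), a cytosolic peroxidase, was at 459 and 535 CPM in classical monocytes, 432 and 605 in nonclassical monocytes, 458 and 533 in C1q macrophages and 212 and 222 in NK cells. Its largest ratio was 0.49 (0.37 to 0.60) in nonclassical monocytes, and its level in the Arg1/Spp1 cells of RES, 658 CPM (633 to 684), was the highest of the RES classes. However, 1 of those cells held 159 of their 2681 Prdx1 UMIs, and RES nonclassical monocytes reached 605 CPM (578 to 632). The part of that cell in the rank was not tested. Prdx5, on chr19:6906697-6910106 (minus strand), a peroxidase found in mitochondria, peroxisomes and cytosol, was at 1823 and 1333 CPM in classical monocytes (-0.45, -0.49 to -0.41), 844 and 964 in nonclassical monocytes (0.19, 0.11 to 0.28) and 1145 and 928 in C1q macrophages (-0.30, -0.40 to -0.21). It was at 170 and 174 CPM in NK cells and at 141 and 209 in cDC (0.56, 0.33 to 0.80), and its ratio was -1.53 in the monocytes and macrophages outside the named gates. Prdx5 overlaps Trmt112 on the other strand, which was at 145 and 152 CPM in monocytes and macrophages. In NK cells Cybb and Ncf1 were under 20 CPM in both libraries, and none of the other 7 members was called, where 0.841% of all genes were higher and 0.673% lower.

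Other genes of these systems came from 7 lists with 50 genes. In monocytes and macrophages 33 were measured, 2 were called higher and none lower, where 6.96% of all genes were called higher and 4.74% lower. The 2 were Gpx1, a glutathione peroxidase (2354 and 3588 CPM, 0.61), and Slc7a11, the cystine importer (15.7 and 24.9 CPM, 0.66). None of the 7 measured oxidase partners was called: Rap1a had a ratio of -0.11, Rac1 of 0.08 and Vav1 of 0.03. The other NADPH oxidases had no measured gene of 7. Among peroxiredoxin and thioredoxin partners, Prdx3 (0.53) and Prdx6 (0.44) were the highest and Txnip, a thioredoxin inhibitor (-0.48), and Prdx4 (-0.11) the lowest. Of the enzymes that supply NADPH, Pgd was at 0.51, Idh1 at 0.49, Tkt at -0.02 and G6pdx at -0.11. Superoxide dismutase Sod1 was at 0.00 and catalase Cat at 0.26. Glutathione synthesis and conjugation genes Mgst1 and Gclm were at 0.01 and -0.27. On the axis of NRF2, the factor that acts on antioxidant response elements, Hmox1 was at 0.44, Nfe2l2 at 0.17 and Keap1 at -0.37.

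Of all genes, 3.22% were called higher and 3.99% lower in classical monocytes, and 5.59% and 2.67% in nonclassical monocytes. The shares were 17.2% and 17.4% in C1q macrophages and 0.841% and 0.673% in NK cells. Of the genes in the other lists, 1 was higher and 0 lower of 34 measured in classical monocytes, and 4 and 1 of 32 in nonclassical monocytes. The count was 10 and 4 of 35 in C1q macrophages and 0 and 0 of 25 in NK cells. The 4 in nonclassical monocytes, named after their values were seen, were Slc7a11 (2.34, 1.60 to 3.16), Gstm1, a glutathione transferase (1.49, 1.15 to 1.85), Cat (0.75) and Gclc (0.74), and the 1 lower was Gclm (-0.83). Of the 10 peroxiredoxin and thioredoxin partners in C1q macrophages, likewise named after their values were seen, 4 were called higher (Prdx3, Txnrd1, Txnrd2 and Srxn1) and 3 lower (Prdx4, -0.63, Glrx, -0.69, and Txnip). Txnrd1, the reductase of thioredoxin, was at 64.9 and 124 CPM (0.94, 0.55 to 1.35), Srxn1, which restores overoxidized peroxiredoxins, at 4.40 and 24.5 CPM (2.48, 1.09 to 4.38), and Txnip at 388 and 153 CPM (-1.35, -1.53 to -1.16). Gpx1 was at 1923 and 4546 CPM there (1.24) and Hmox1, haem oxygenase, at 78.1 and 202 CPM (1.37). In nonclassical monocytes, where the Txn1 ratio was larger, Txnrd1 had a ratio of 0.11 (-0.16 to 0.39) and Txnip of -0.22 (-0.40 to -0.05).

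Genes with the most similar pattern were ranked by Pearson correlation of log2(CPM + 10) over 13 points, each a class in a library, among 2841 genes. These points share 2 libraries and their depth, and no test was made. Cyba was closest to Nfe2l2 (r = 0.984), Ncf1 to Ctsz (0.944) and Ncf4 to Plaur (0.932). Sod2 was closest to Adam17 (0.953), Gsr to Msrb1 (0.980), Prdx1 to Dstn (0.957) and Prdx5 to Lamp1 (0.978). Txn1 was closest to Fam20c (0.828), the lowest of these values.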

How the data were processed

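The authors deposited unnormalized UMI counts for every gene and barcode, 1 matrix for Ctrl and 1 for RES. Per the file headers, Cell Ranger 3.1.0 made them. Per the submitters' processing notes, bcl2fastq and Cell Ranger were used with mm10. The gene annotation and strand setting are not given in the sources used here. No columns of other samples were left aside (0).

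Barcodes under 200 genes or above 10% mitochondrial UMIs were dropped (245 Ctrl and 121 RES), and then the highest Scrublet scores were left out at 0.8% per 1000 barcodes (109 and 146), with scanpy 1.11.5. A lineage was on at 3 UMIs over at least 2 of its markers. Cells with several lineages were left out, except those with only the cDC and the monocyte or macrophage lineages on. These went to the lineage with the higher marker sum, and ties went to cDC. Within monocytes and macrophages, 5 C1q UMIs, then 5 Arg1 and Spp1 UMIs, then the monocyte markers decided the class. UMI sums were scaled to CPM. Sums have exact Poisson intervals, shares exact Clopper-Pearson intervals and ratios exact conditional binomial intervals (scipy 1.17.1, 95%). Shares of cells were taken after thinning to 1000 UMIs. The ratios, their intervals and the fold call were tried on simulated counts with Poisson error alone, the error that the intervals assume. Thinning was tried on cells of the Ctrl library. All members were named, and from each other list the 2 highest and 2 lowest ratios in monocytes and macrophages with at least 20 CPM, and for each member its most similar gene. A gene that these rules select is not reported here. Members and lists were chosen with earlier results of these data known. Alternatives covered filters, gates, thinning, scaling and minimum level.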

Additional observations from a re-analysis of the deposited data

Results flagged for a closer look

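Sod2 differed between the libraries in opposite directions in different cell classes. Its log2 ratio RES over Ctrl was -0.67 in classical monocytes, 0.88 in nonclassical monocytes and 0.81 in C1q macrophages, and the counting intervals of the classical monocyte ratio and the others lie on opposite sides of 0. With 1 library per group the difference between classes was not tested.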

How the results depend on the processing

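No paired analysis was possible because each group is 1 library. Txn1 and Sod2 in nonclassical monocytes and Ncf1, Sod2 and Txn1 in C1q macrophages were past 1.5-fold in the same direction under all 9 alternatives in cell filters, gates, depth, weighting and scaling. The number of members called moved from 2 to 1 in monocytes and macrophages with cells weighted equally, and from 0 to 1 in NK cells with no minimum level. In classical monocytes it moved from 2 to 0 without the Arg1/Spp1 gate and to 0 with the interferon list at most 500 CPM, where the sign of Sod2 changed, to 0.09 (-0.10 to 0.29), an interval that spans 0. In C1q macrophages it moved from 3 to 5 after thinning, with Cybb and Gsr lower, and to 4 with cells weighted equally or ratios centred on the median, with Cybb lower. In nonclassical monocytes it moved from 2 to 3 after thinning, with Prdx1 at 0.59. In cDC it moved from 1 to 2 with gates at 2 UMIs and to 0 with a minimum of 100 CPM. In B cells it moved from 1 to 0 with a mitochondrial limit of 5% (43 and 40 cells), with gates at 2 UMIs and with totals without mitochondrial and ribosomal protein genes, and to 7 after thinning. The share of all genes called was taken at the main setting alone, so the counts under the alternatives have no such share beside them. They are not read as results about the members. The causes were not tested, except that thinning and a stricter limit leave fewer UMIs or cells. Of the members' ratios under the alternatives, 561 moved by less than their counting interval and 76 by more. For Gsr in B cells, thinning left no Ctrl UMI and gave no ratio. Ratios from the 60 and 64 B cells and the 113 Ctrl C1q macrophages are limited by the number of cells. The interferon limit and the omission of monocytes and macrophages outside the 4 named gates were chosen after the data were seen.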
